A study of Mus musculus with 8 samples.

Results

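The genes described here encode the machinery that copies DNA: 45 genes chosen by name, from the origin recognition complex to chromatin assembly factors, among 18193 genes represented on Affymetrix mouse arrays. Each gene was represented by the probe set of highest mean over the 6 EphB2 arrays among those naming that gene alone. By that rule 44 of the 45 were measured, and Chaf1a, with no probe set naming it alone, was not analysed here. The choice of probe set used gene names and brightness only, not any difference between groups. The gene list itself was chosen with earlier results of these data known.

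All arrays carried RNA of intestinal crypt cells from C57BL/6 mice, dissociated by shaking with EDTA and then Dispase with DNase I, and separated on a flow cytometer. One sort used an antibody to EphB2, a guidance receptor most abundant on cells at the bottom of the crypt, and gave EphB2 High, EphB2 Medium and EphB2 Low cells, with 2 arrays each. The other used green fluorescence from an EGFP allele knocked into Lgr5, a stem cell gene of the crypt base, and gave Lgr5 High and Lgr5 Low cells, with 1 array each. By the labelled hybridization dates, the first EphB2 arrays of the 3 groups were hybridized together, the second ones together at another time, and both Lgr5 arrays at a time of their own. The labels name no further treatment, and do not say whether the mice of the EphB2 sort carried the knock-in allele. The labels do not give the age of the animals, their number per array, or whether the replicates of a group are different animals. P-values therefore reflect only how far these arrays scatter, and that scatter may be technical.

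Marker genes followed the sorts. In EphB2 High cells all 10 stem cell markers rose and all 12 measured enterocyte markers fell against EphB2 Low cells. The median level of the enterocyte markers lay between 10.30 and 10.71 (log2) on the EphB2 High arrays, between 12.52 and 12.53 on the Medium arrays and between 13.63 and 13.76 on the Low arrays. It was 9.18 on the Lgr5 High array and 12.75 on the Lgr5 Low array. Median levels of lymphocyte, myeloid, and stromal and endothelial markers lay between 4.20 and 5.47 on all 8 arrays. The lymphocyte median lay between 4.44 and 4.60 on the EphB2 High arrays and between 4.80 and 4.92 on the EphB2 Low arrays, the myeloid median between 4.92 and 5.09 and between 5.28 and 5.37, and the stromal and endothelial median between 4.20 and 4.39 and at 4.49. Single members of these lists moved either way. Between EphB2 High and Low cells 22.0% of all genes were called higher and 15.3% lower, and 45.3% had an unadjusted p below 0.05 (limma). Of the 9 lymphocyte markers Cd79b was called higher in EphB2 High than in EphB2 Low cells (0.99 ± 0.23, adjusted p = 0.0194) and Cd3d lower (-0.75 ± 0.21, adjusted p = 0.0334). Of the 8 myeloid markers Cd68 (1.44 ± 0.40, adjusted p = 0.0361) and Lyz2, which Paneth cells also express (0.65 ± 0.15, adjusted p = 0.0196), were called higher and 0 lower, and of the 8 stromal and endothelial markers limma called 0, with 1 at an unadjusted p below 0.05. Vim, of that list, lay between 7.59 (Lgr5 High) and 11.05 (Lgr5 Low) over the 8 arrays. Of the 8 myeloid markers, 2 were at least 2-fold lower on the Lgr5 High than on the Lgr5 Low array and 0 higher. These were Lyz2 (-1.35) and C1qa (-1.34), and 5.07% of all genes were that much lower. Because these are bulk samples, fewer replicating cells and less RNA per replicating cell cannot be told apart, and the part of these markers' cells in the values below was not tested.

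DNA replication begins at origins bound by the origin recognition complex, where Cdc6 and Cdt1 load the ring-shaped Mcm2-7 helicase. Cdc45 and the GINS complex turn that ring into the active helicase, primase and polymerase alpha start new strands, and polymerases delta and epsilon extend them with the clamp Pcna, which the Rfc complex loads. Many of these genes are targets of E2F transcription factors and are transcribed as cells enter S phase. In the intestine, dividing cells are found in the crypt, both as Lgr5-positive stem cells at the base and as transit-amplifying progenitors above it, while differentiated cells on the villus do not replicate.

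In EphB2 High cells 43 of the 44 replication genes rose against EphB2 Low cells (limma across all genes, Benjamini-Hochberg adjusted p below 0.05), and 0 fell. Over all genes 22.0% were called higher and 15.3% lower in the same comparison. The median difference of the 44 was 1.77 on the log2 scale, beside 0.01 over all genes, and single genes ranged from 0.31 (Orc3) to 2.65 (Pole). EphB2 Medium cells showed nearly the same picture: 42 of 44 rose against EphB2 Low cells, with a median difference of 1.59, where 14.6% of all genes were called higher and 10.1% lower. Between EphB2 High and EphB2 Medium cells limma called 0 of the 44, with 2 at an unadjusted p below 0.05 (Pola2 and Orc5) and a median difference of 0.22. Each gene had an estimate of spread shared by all EphB2 groups, so scatter on the Low arrays entered these p-values. For Lig1 the SD was 0.03 (High), 0.0 (Medium) and 0.61 (Low), and the standard error between High and Medium 0.27. The 0 calls therefore do not show that High and Medium cells were alike. In that comparison 0.214% of all genes were called higher and 1.15% lower, and 14.2% had an unadjusted p below 0.05 in either direction. The replication genes were thus high on 4 arrays, EphB2 High and Medium, and low on the 2 EphB2 Low arrays, and for all 44 the High arrays and the Medium arrays lay above both Low arrays without overlap. Over all genes, 36.4% had both High arrays above both Low arrays, and 32.5% both Medium arrays above both Low arrays. Both High arrays lay above both Medium arrays for 32 of the 44, and for 27.9% of all genes.

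**Figure D1:**
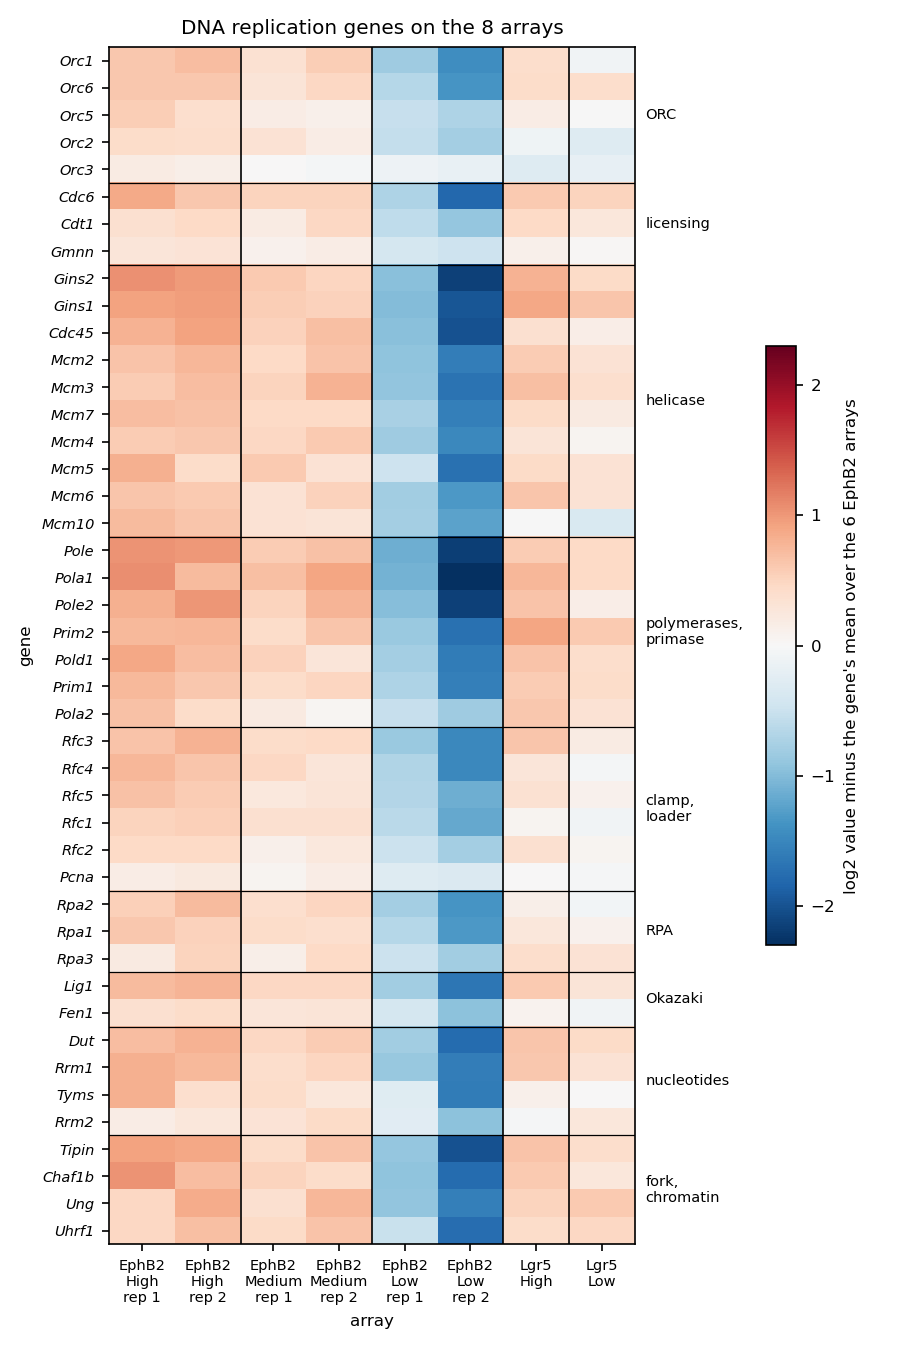
Level of each of the 44 replication genes (rows, grouped by complex) on the 8 arrays (columns), as the log2 value minus that gene's mean over the 6 EphB2 arrays. Red marks levels above that mean and blue below it. The 2 EphB2 Low columns are blue for nearly every gene and the second is the darker, while Orc3 and Pcna are pale in all 6 EphB2 columns.

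Promoter sequences were set beside these values because the members moved together. RefSeq promoter windows (build GRCm38.p6, 250 bases before to 50 after the annotated start) were matched by symbol for 37 of the 45 genes. A gene with several windows counted once, as holding a motif if any window did. The E2F consensus was searched in 4 spellings (TTTCCCGC, TTTGGCGC, TTTCGCGC and TTTGCCGC) on both strands. It was found in 14 of the 37 genes (37.8%), in 3.81% of the 14452 genes measured on the arrays that had a window, and in 2.60% of all 27025 genes of the table. The members' windows were richer in G and C (median 61.3%, against 52.7% over the table). Among all genes with windows of GC content between 54% and 65.7%, the quartiles of the members, the share with an E2F match was 3.83%. Of the other measured genes with a window, an E2F match was found in 6.66% of those called higher in EphB2 High than in EphB2 Low cells, in 2.62% of those called lower and in 2.93% of those not called. Mitosis genes, which were high on the same arrays, differed in composition. Of 22 mitosis genes with a window, 4.55% held an E2F match, whereas 72.7% held TTTGAA, the core of the CHR element of G2 and M phase promoters. Among the replication genes TTTGAA was found in 8.11% (15.7% of genes measured on the arrays). A list of other replication genes, described at the end, did not share that low figure, with TTTGAA in 29.4% of 34 genes and an E2F match in 32.4%. CCAAT, the box bound by NF-Y, was found in 59.5% of replication genes, 77.3% of mitosis genes and 42.0% of genes measured on the arrays. A match describes letters in the window and is no evidence of binding.

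**Figure D2:**
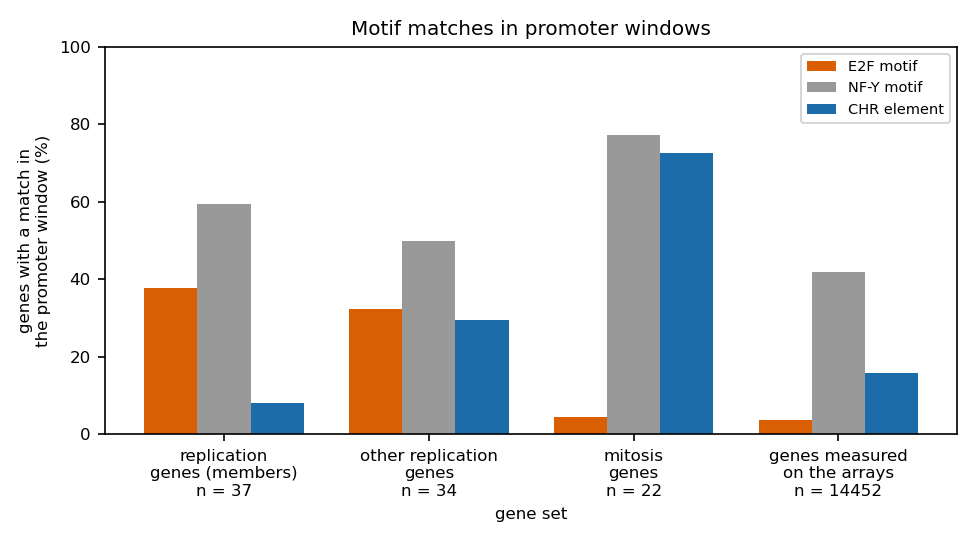
Percent of genes (vertical axis) whose RefSeq promoter window holds an E2F match (orange), an NF-Y match (grey) or a CHR match (blue), for the replication genes, other replication genes, mitosis genes and all genes measured on the arrays. The number of genes with a window is given under each set. E2F matches reach 37.8% in the replication genes and CHR matches 72.7% in the mitosis genes.

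The windows below are those of the member of largest High-to-Low difference in each group of proteins for which the table held one, and of Orc3, the member that did not pass the test. They run 5′ to 3′ on the gene's strand, with E2F and CCAAT matches (either strand) in capitals, and for a gene with several windows the one with an E2F match is printed. Orc1, Cdc6, Rfc3 and Lig1 hold an E2F match, Rpa2 holds 3 CCAAT boxes and no E2F match, and Dut neither. Orc3 holds an E2F match although its level hardly differed.
Orc1 (chr4:108579204-108579503, plus strand): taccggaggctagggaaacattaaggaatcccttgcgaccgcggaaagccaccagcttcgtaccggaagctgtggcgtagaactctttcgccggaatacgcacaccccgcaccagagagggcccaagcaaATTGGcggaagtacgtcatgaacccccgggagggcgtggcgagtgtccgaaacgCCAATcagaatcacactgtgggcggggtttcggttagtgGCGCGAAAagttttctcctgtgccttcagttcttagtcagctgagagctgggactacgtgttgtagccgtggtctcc
Orc3 (chr4:34614893-34615192, minus strand): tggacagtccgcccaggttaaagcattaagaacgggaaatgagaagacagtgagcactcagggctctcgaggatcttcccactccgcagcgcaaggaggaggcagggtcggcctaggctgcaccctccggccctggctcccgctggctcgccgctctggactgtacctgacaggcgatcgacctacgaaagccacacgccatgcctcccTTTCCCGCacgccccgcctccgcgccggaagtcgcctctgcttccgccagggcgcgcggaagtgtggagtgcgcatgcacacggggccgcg
Cdc6 (chr11:98907901-98908200, plus strand): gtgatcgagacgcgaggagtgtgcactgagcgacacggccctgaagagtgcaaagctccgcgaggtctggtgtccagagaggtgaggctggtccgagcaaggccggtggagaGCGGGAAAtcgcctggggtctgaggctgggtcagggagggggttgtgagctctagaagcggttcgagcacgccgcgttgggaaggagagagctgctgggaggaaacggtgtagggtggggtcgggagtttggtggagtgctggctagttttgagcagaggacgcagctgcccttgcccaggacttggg
Rfc3 (chr5:151651159-151651458, minus strand): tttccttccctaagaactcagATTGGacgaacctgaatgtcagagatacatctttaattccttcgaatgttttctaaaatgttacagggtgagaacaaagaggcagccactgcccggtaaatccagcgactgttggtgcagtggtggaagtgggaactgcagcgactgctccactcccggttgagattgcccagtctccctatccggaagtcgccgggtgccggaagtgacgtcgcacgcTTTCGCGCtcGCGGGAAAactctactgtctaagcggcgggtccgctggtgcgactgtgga
Rpa2 (chr4:132768110-132768409, plus strand): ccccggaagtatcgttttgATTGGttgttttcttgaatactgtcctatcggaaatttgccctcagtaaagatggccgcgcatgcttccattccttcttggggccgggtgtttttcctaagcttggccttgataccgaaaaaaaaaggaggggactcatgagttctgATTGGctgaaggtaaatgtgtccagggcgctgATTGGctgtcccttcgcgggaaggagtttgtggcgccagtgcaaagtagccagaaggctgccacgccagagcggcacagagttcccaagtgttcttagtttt
Lig1 (chr7:13278576-13278875, plus strand): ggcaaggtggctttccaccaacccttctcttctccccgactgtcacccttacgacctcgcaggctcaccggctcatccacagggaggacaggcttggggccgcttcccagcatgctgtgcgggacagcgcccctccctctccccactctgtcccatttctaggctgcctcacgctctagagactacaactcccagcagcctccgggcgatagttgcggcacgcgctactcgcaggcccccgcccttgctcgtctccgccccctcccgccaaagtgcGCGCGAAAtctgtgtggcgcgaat
Dut (chr2:125247265-125247564, plus strand): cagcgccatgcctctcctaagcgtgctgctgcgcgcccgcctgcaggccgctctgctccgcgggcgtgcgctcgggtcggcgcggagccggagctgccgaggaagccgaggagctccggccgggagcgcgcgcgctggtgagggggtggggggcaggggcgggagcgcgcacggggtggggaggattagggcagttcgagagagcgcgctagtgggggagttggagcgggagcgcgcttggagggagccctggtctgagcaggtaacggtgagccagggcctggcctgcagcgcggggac

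Matches in the other E2F-bearing members are shown with up to 20 flanking bases. In Mcm5 and Mcm6 an E2F match and another on the opposite strand overlap, so that their capitals form 1 run, and a further E2F match of Mcm6 and of Mcm7 lies outside the stretch shown.
Mcm3 (chr1:20820263-20820313, minus strand): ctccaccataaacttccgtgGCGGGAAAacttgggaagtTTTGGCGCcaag
Mcm5 (chr8:75109336-75109387, plus strand): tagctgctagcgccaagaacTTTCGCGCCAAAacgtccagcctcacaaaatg
Mcm6 (chr1:128359788-128359835, minus strand): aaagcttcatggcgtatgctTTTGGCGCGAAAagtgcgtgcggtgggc
Mcm7 (chr5:138172021-138172068, minus strand): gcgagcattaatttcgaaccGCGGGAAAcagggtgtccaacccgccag
Cdt1 (chr8:122568027-122568064, plus strand): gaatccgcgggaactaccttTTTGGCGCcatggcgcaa
Pole2 (chr12:69228153-69228200, minus strand): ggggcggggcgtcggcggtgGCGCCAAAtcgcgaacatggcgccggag
Pola1 (chrX:93632266-93632313, minus strand): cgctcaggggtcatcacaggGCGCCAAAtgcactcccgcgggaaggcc
Pold1 (chr7:44548766-44548796, minus strand): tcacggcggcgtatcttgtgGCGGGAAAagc
Uhrf1 (chr17:56304108-56304155, plus strand): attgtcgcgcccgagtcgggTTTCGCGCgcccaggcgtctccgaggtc
Among members with a window, the median High-to-Low difference was 1.88 for the 14 with an E2F match and 1.59 for the 22 measured members without one, with ranges of 0.31 to 2.59 and 0.51 to 2.34 that overlapped.

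The origin recognition complex marks the sites where replication starts. Of its 5 measured subunits 4 rose in EphB2 High against EphB2 Low cells and Orc3 did not pass. Orc1, whose window with its E2F match is shown above, had log2 levels of 8.37 and 8.46 on the EphB2 High arrays, 8.11 and 8.31 on the Medium arrays and 6.94 and 6.32 on the Low arrays. It was at 8.16 on the Lgr5 High and 7.67 on the Lgr5 Low array. High and Medium arrays lay well above the Low arrays, and Orc1 rose by 1.79 ± 0.22 in EphB2 High cells (log2, SE, n = 2 arrays per group; limma adjusted p = 0.00221). Orc3 was nearly flat, at 11.16 and 11.12 on the High arrays and 10.99 and 10.93 on the Medium arrays. On the Low arrays it was at 10.87 and 10.80, on the Lgr5 High array at 10.68 and on the Lgr5 Low array at 10.79. Its EphB2 groups did not overlap, but the High-to-Low difference of 0.31 ± 0.11 had an adjusted p = 0.0751 (limma). It passed with limma-trend (0.0387) and when dim genes were left out (0.0242). Its 2 further probe sets gave 0.45 and 0.14. Orc6 differed by 1.62 ± 0.24, Orc5 by 1.08 ± 0.13 and Orc2 by 1.07 ± 0.13, all called. The 5 subunits thus spanned more than a log2 unit between them.

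Cdc6 and Cdt1 load the helicase at origins, and geminin (Gmnn) blocks Cdt1 once S phase has begun. All 3 rose in EphB2 High against EphB2 Low cells. Cdc6 stood at 10.15 and 9.91 on the High arrays, 9.79 and 9.80 on the Medium arrays and 8.58 and 7.47 on the Low arrays, with 9.89 on the Lgr5 High and 9.80 on the Lgr5 Low array. The Low arrays were lowest and also differed most from each other, and the difference between High and Low was 2.01 ± 0.35 (limma adjusted p = 0.00674). For Gmnn the levels were 12.74 and 12.78 (High), 12.56 and 12.63 (Medium) and 12.06 and 11.98 (Low), with 12.58 and 12.48 in Lgr5 High and Lgr5 Low cells. Its difference, 0.74 ± 0.11, was smaller but held over a narrow spread (adjusted p = 0.00381). Cdt1 rose by 1.16 ± 0.16.

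The helicase and its activators all rose between EphB2 High and Low cells, 10 of 10, by 1.68 to 2.57. The 6 subunits of the Mcm2-7 ring differed by 1.69 (Mcm6) to 1.97 (Mcm2), with standard errors of 0.19 to 0.40. That narrow span depended on the probe sets: with the mean of each gene's probe sets it ran from 1.09 (Mcm6) to 2.20 (Mcm3), and without probe sets marked for possible matches to other transcripts from 1.69 (Mcm6) to 2.51 (Mcm3). Gins1 differed by 2.42 ± 0.30, Gins2 by 2.57 ± 0.37 and Cdc45 by 2.34 ± 0.33. With the mean of probe sets Gins1 (1.56) and Cdc45 (1.33) lay within the range of the ring and Gins2 (2.47) above it. The means of Gins1, Cdc45 and Mcm6 included further probe sets at mean levels of 6.14, 5.85 and 3.13, in that order. No order between ring and activators is given. Gins2, a GINS subunit, had levels of 11.14 and 11.07 on the High arrays, 10.69 and 10.58 on the Medium arrays and 9.14 and 7.94 on the Low arrays. On the Lgr5 High and Lgr5 Low arrays it was at 10.90 and 10.53. Mcm10, which helps to activate the helicase, was at 11.09 and 11 (High), 10.70 and 10.66 (Medium), 9.59 and 9.14 (Low), 10.36 (Lgr5 High) and 10.01 (Lgr5 Low). In both genes the Medium arrays lay a little below the High arrays and far above the Low arrays. Mcm10 rose by 1.68 ± 0.17 (limma adjusted p = 0.00132) and Gins2 had an adjusted p = 0.00361. Mcm5 (1.71 ± 0.40) no longer passed when either EphB2 High array was left out, at adjusted p = 0.0965 (replicate 1) and 0.06 (replicate 2).

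Among polymerase and primase genes all 7 rose between EphB2 High and Low cells, with a median of 2.03. With the probe sets used, Pole, the catalytic subunit of polymerase epsilon on the leading strand, had the largest difference of all 44 members. It was at 11.11 and 11.07 on the High arrays, 10.66 and 10.75 on the Medium arrays, and 8.96 and 7.92 on the Low arrays, and at 10.67 and 10.53 in Lgr5 High and Lgr5 Low cells. This amounted to 2.65 ± 0.32, or 6.27-fold (limma adjusted p = 0.00216). Pola1, the catalytic subunit of polymerase alpha, followed with 2.59 ± 0.39 and Pole2, the accessory subunit of polymerase epsilon, with 2.48 ± 0.38. The accessory subunit Pola2 differed least of the 7, with 10.43 and 10.18 (High), 9.96 and 9.80 (Medium), 9.23 and 8.95 (Low), 10.37 (Lgr5 High) and 10.09 (Lgr5 Low). Its Medium arrays lay between the High and the Low arrays without overlap, with 1.22 ± 0.16 between High and Low (adjusted p = 0.00263) and 0.42 ± 0.16 between High and Medium (adjusted p = 0.319, unadjusted p = 0.0383). Prim2 rose by 2.03 ± 0.28, Pold1 by 1.99 ± 0.28 and Prim1 by 1.82 ± 0.28. With the mean of probe sets the differences of Pola1 (1.51), Pole2 (1.54) and Pola2 (0.50) were smaller by more than 1.5 times. Their further probe sets had mean levels of 2.92 (Pola1), 4.79 (Pole2), and 5.66 and 4.68 (Pola2).

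The clamp loader is built of Rfc1 to Rfc5 and places the clamp Pcna on DNA. All 6 genes rose between EphB2 High and Low cells, but by unequal amounts. Rfc3 was at 10.79 and 10.93 on the High arrays, 10.55 and 10.59 on the Medium arrays, 9.27 and 8.64 on the Low arrays, 10.76 on the Lgr5 High and 10.32 on the Lgr5 Low array. Its difference was 1.90 ± 0.22 (limma adjusted p = 0.00177), with Rfc4 at 1.79 ± 0.27, Rfc5 at 1.52 ± 0.17, Rfc1 at 1.43 ± 0.19 and Rfc2 at 1.10 ± 0.14. Pcna, often used to stain dividing cells, was bright everywhere, with 13.50 and 13.55 (High), 13.39 and 13.51 (Medium), 13.04 and 13 (Low), 13.34 (Lgr5 High) and 13.31 (Lgr5 Low). It differed by 0.51 ± 0.11 (adjusted p = 0.0155), the second smallest difference of the 44 after Orc3, although Pola2 was as low with the mean of probe sets. It no longer passed when either EphB2 High array was left out (adjusted p = 0.0634 for replicate 1, 0.0891 for replicate 2), nor without the second EphB2 Low array (0.0565).

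Replication protein A coats single-stranded DNA at the fork, and all 3 of its subunits rose. Rpa2 was at 11.30 and 11.48 on the EphB2 High arrays, 11.14 and 11.26 on the Medium arrays, 9.97 and 9.40 on the Low arrays, 10.89 on the Lgr5 High and 10.70 on the Lgr5 Low array. Rpa3 was at 11.49 and 11.80 (High), 11.42 and 11.75 (Medium), 10.79 and 10.50 (Low), 11.69 (Lgr5 High) and 11.63 (Lgr5 Low). The Low arrays were lowest for both. Rpa2 differed by 1.70 ± 0.21 between High and Low (limma adjusted p = 0.00213), Rpa1 by 1.56 ± 0.22 and Rpa3 by 1.0 ± 0.19 (adjusted p = 0.00931, or 0.0582 without EphB2 High replicate 2).

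Fen1 trims the flaps of Okazaki fragments and Lig1 seals them. Lig1 was at 11.53 and 11.58 on the High arrays, 11.27 and 11.28 on the Medium arrays, 10.00 and 9.13 on the Low arrays, 11.40 on the Lgr5 High and 11.09 on the Lgr5 Low array. For Fen1 the levels were 13.49 and 13.54 (High), 13.39 and 13.41 (Medium), 12.72 and 12.17 (Low), 13.20 (Lgr5 High) and 13.04 (Lgr5 Low). Both rose between High and Low, Lig1 by 1.99 ± 0.27 (limma adjusted p = 0.00315) and Fen1 by 1.07 ± 0.19 (adjusted p = 0.00791). The Fen1 probe set carries the suffix that Affymetrix gives to probes that may match other transcripts, and a further probe set of Fen1 at a mean level of 11.07 gave 1.94 ± 0.20.

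The nucleotide pool is supplied or guarded by 4 members: Rrm1 and Rrm2 form ribonucleotide reductase, Tyms makes thymidylate and Dut removes dUTP. All 4 rose between EphB2 High and Low cells. Dut was at 12.87 and 12.96 on the High arrays, 12.63 and 12.74 on the Medium arrays, 11.36 and 10.38 on the Low arrays, 12.79 on the Lgr5 High and 12.59 on the Lgr5 Low array, a difference of 2.04 ± 0.31 between High and Low (limma adjusted p = 0.00422). Rrm2 was at 12.68 and 12.77 (High), 12.82 and 12.95 (Medium), 12.24 and 11.56 (Low), 12.48 (Lgr5 High) and 12.77 (Lgr5 Low). Its brightest arrays were thus the Medium ones, and it differed by 0.82 ± 0.23 between High and Low (adjusted p = 0.036). Its further probe sets, without the suffix for probes that may match other transcripts, gave 1.99 ± 0.38 and 1.53 ± 0.36. Between High and Medium they gave 0.13 and -0.15, in the same order, against -0.16 for the probe set used. The Rrm2 call was lost when any array but EphB2 Low replicate 1 was left out (adjusted p from 0.0614 without either Medium array to 0.145 without EphB2 High replicate 2). Rrm1 rose by 2.01 ± 0.24, and its further probe sets gave 2.86 ± 0.30 (mean level 8.67) and 0.39 ± 0.26 (mean level 4.79). Tyms rose by 1.54 ± 0.43 (adjusted p = 0.0356), a call lost without either High array (0.151 and 0.0848), without either Medium array (0.0604 each) and with the mean of its 4 probe sets (0.088).

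The remaining members act at or behind the fork. Uhrf1 guides maintenance DNA methylation, Ung removes uracil from DNA, Tipin stabilizes the fork with Timeless, and Chaf1b belongs to chromatin assembly factor 1. Tipin was at 10.82 and 10.78 on the High arrays, 10.31 and 10.55 on the Medium arrays, 9.0 and 7.90 on the Low arrays, 10.54 on the Lgr5 High and 10.29 on the Lgr5 Low array. Uhrf1 was at 12.44 and 12.66 (High), 12.41 and 12.63 (Medium), 11.45 and 10.22 (Low), 12.39 (Lgr5 High) and 12.44 (Lgr5 Low). Ung was at 11.65 and 12.02 (High), 11.54 and 11.93 (Medium), 10.26 and 9.60 (Low), 11.68 (Lgr5 High) and 11.76 (Lgr5 Low). For Uhrf1 and Ung the High and Medium arrays of the same hybridization were almost level, and only the Low arrays stood apart. All 4 rose between High and Low, Tipin by 2.35 ± 0.35 (limma adjusted p = 0.00387), Chaf1b by 2.22 ± 0.28 (1.24 with the mean of probe sets), Ung by 1.90 ± 0.27 and Uhrf1 by 1.72 ± 0.39 (adjusted p = 0.0172). Uhrf1 did not pass when either High array was left out (0.0601 for replicate 1, 0.0884 for replicate 2).

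The change was unevenly divided between the steps of the sort. From Low to Medium the differences ran from 0.12 to 2.49, and from Medium to High from -0.16 (Rrm2) to 0.47 (Gins2). For 43 of the 44 genes the upper step was the smaller on the log2 scale, in both hybridizations, and over all genes 35.2% had a smaller upper step in both. Orc3 was the exception, with 0.18 from Medium to High and 0.12 from Low to Medium. The test of the upper step minus the lower step called 0 of the 44 after adjustment (limma, adjusted p from 0.29 to 0.939), and 1 of 18193 genes in all (0.0055%). At an unadjusted p below 0.05 it held 34 of the 44, all with the smaller upper step, beside 11.9% of all genes in either direction. The largest gap was that of Pola1, with 2.49 ± 0.39 below and 0.10 ± 0.39 above, a difference of -2.39 (unadjusted p = 0.0124, adjusted p = 0.325). Although limma called 0 members between High and Medium, also with the hybridization as a block and with limma-trend, 40 of 44 were higher in High than in Medium cells in both hybridizations, against 39.6% of all genes. The 2 contrasts share the Medium arrays.

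**Figure D3:**
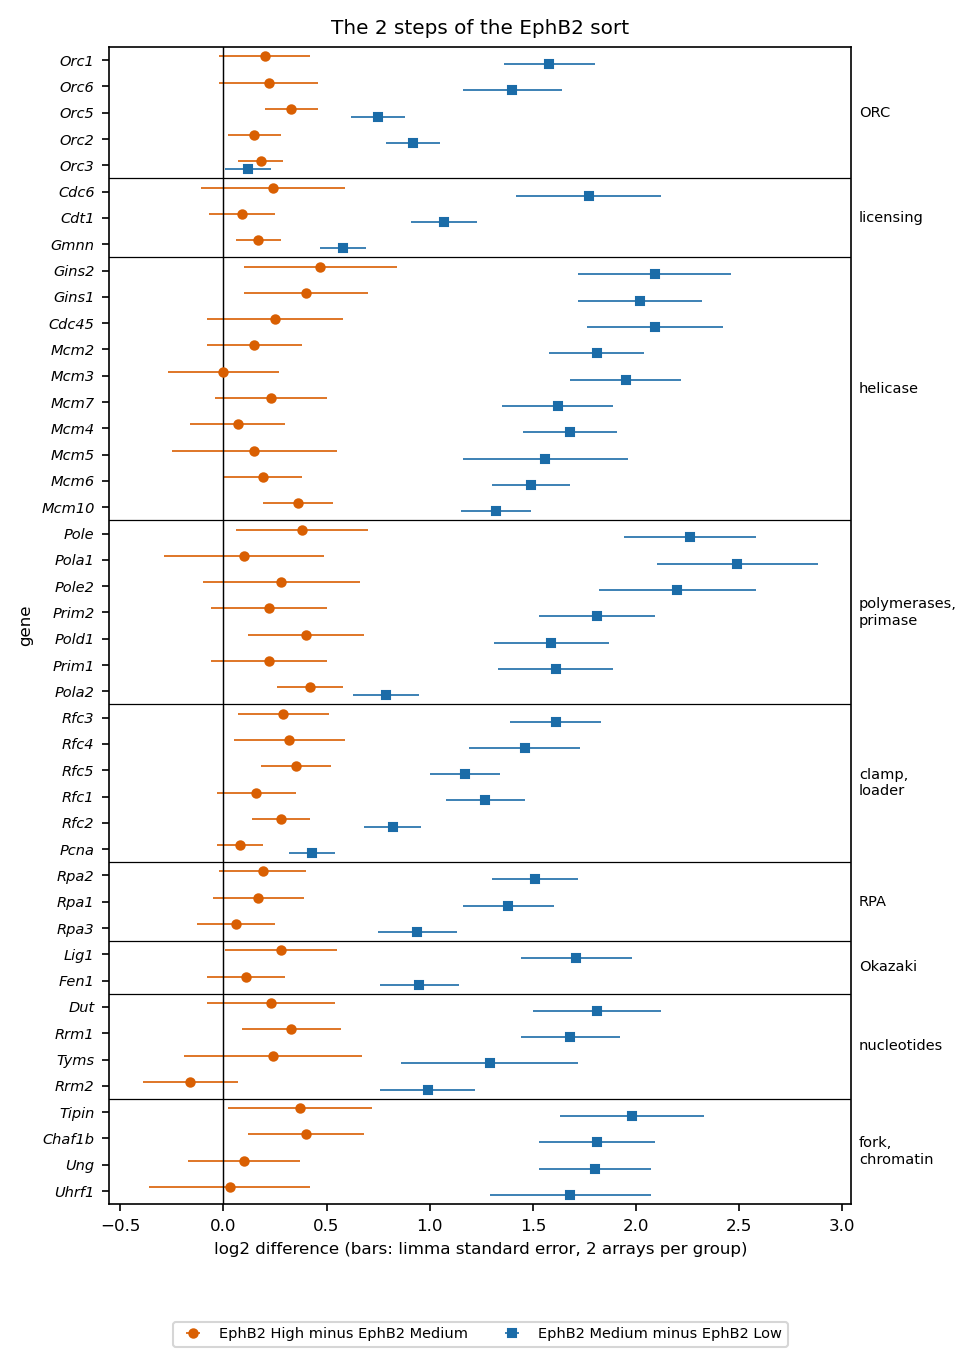
Log2 difference of each replication gene between EphB2 High and EphB2 Medium cells (orange circles) and between EphB2 Medium and EphB2 Low cells (blue squares), grouped by complex. Bars are limma standard errors (2 arrays per group) from a spread shared by all EphB2 groups. Orange circles lie between -0.16 and 0.47, and blue squares between 0.12 (Orc3) and 2.49 (Pola1).

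The EphB2 Low arrays were also the most variable. Replicate 1 was above replicate 2 for all 44 genes, by a median of 0.69 and at most 1.34 (Tyms), whereas the median over all genes was 0.01. The gap was not particular to these genes. It was seen in 24 of 24 mitosis genes (median 0.92) and in 31 of 38 other replication genes (median 0.42). On the High arrays replicate 1 was above replicate 2 for 22 of the 44, and on the Medium arrays for 13. The median difference between High and Low was therefore 1.44 in the first hybridization and 2.14 in the second, and that between Medium and Low 1.16 and 1.97, with all 44 genes higher in both. Over all genes 41.1% were higher in High than in Low cells in both hybridizations, and 38.1% in Medium than in Low cells. Between High and Medium it was 0.27 and 0.19. Without EphB2 Low replicate 1 and 2 in turn, the High-to-Low difference was 2.21 and 0.87 for Tyms, 2.33 and 1.09 for Mcm5, and 2.33 and 1.10 for Uhrf1. It was 3.19 and 1.98 for Pola1, 3.17 and 1.96 for Gins2, and 3.07 and 1.89 for Pole2. For Rrm2 it was 1.16 and 0.48. With a lone Low array the spread came from the High and Medium arrays, so calls in these fits are no check on the gap between the Low arrays. In the comparison of Medium with Low cells the number of members called was 19 without EphB2 Medium replicate 1 and 4 without EphB2 Medium replicate 2, where 4.83% and 2.24% of all genes were called higher. The median difference hardly moved (1.60 and 1.57). Tyms (1.29 ± 0.43, adjusted p = 0.0808) and Orc3 (0.12 ± 0.11, adjusted p = 0.478) did not pass in this comparison with all arrays.

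In the Lgr5 sort the replication genes differed little. With 1 array per group there is no replicate check and no test. On the Lgr5 High array 40 of 44 genes were higher than on the Lgr5 Low array, against 44.2% of all genes, but the median difference was 0.23 (log2) and the range -0.29 to 0.50, so that 0 of 44 reached 2-fold in either direction. Over all genes 2.34% were at least 2-fold higher and 5.07% at least 2-fold lower, with a median of -0.05. Among the probe sets used, those of Orc1 (0.50), Pole2 (0.50) and Rfc3 (0.44) had the largest differences. Further probe sets varied more, from -0.66 (Pola2) to 1.0 (Orc2), with 44 of 52 higher on the Lgr5 High array, and the further probe set of Orc1 gave -0.28. Enterocyte markers, by contrast, had a median difference of -3.10 between Lgr5 High and Lgr5 Low, close to the -3.14 between EphB2 High and Low, and stem cell markers 0.89 against 2.41. Both Lgr5 arrays lay above both EphB2 Low arrays for 43 of 44 replication genes, the exception being Orc3, and for 43.7% (Lgr5 High) and 47.5% (Lgr5 Low) of all genes. The members lay above by a median of 1.54 (Lgr5 High) and 1.38 (Lgr5 Low) over the EphB2 Low mean. Against the EphB2 Medium mean their medians were 0.02 (Lgr5 High) and -0.16 (Lgr5 Low), and against the EphB2 High mean -0.19 and -0.44. The Lgr5 arrays were hybridized apart from the others and came from knock-in mice, so sort, hybridization and any difference between the mice cannot be told apart across these comparisons.

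**Figure D4:**
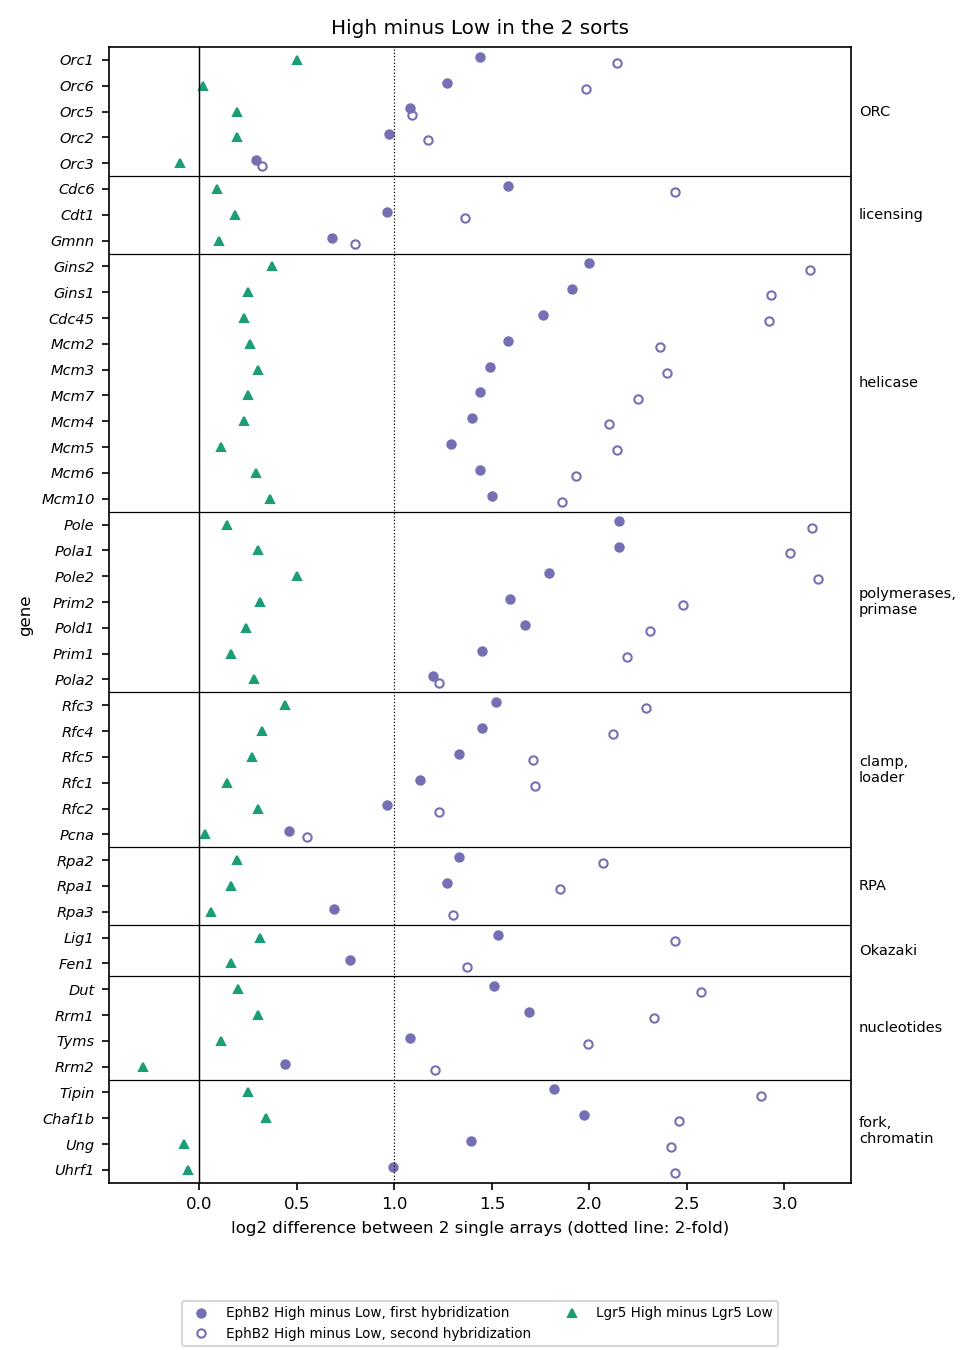
Log2 difference between single arrays for each replication gene: EphB2 High minus EphB2 Low in the first hybridization (filled circles) and the second (open circles), and Lgr5 High minus Lgr5 Low (green triangles). The dotted line marks 2-fold. All triangles lie between -0.29 and 0.50, left of the line, while the circles lie right of 0 for all 44 genes and further right in the second hybridization.

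Further probe sets gave a check on the same arrays. The 44 members had 52 further single-gene probe sets, of which 36 were called higher in EphB2 High than in EphB2 Low cells and 0 lower (limma over all 34945 single-gene probe sets, of which 18.8% were called higher and 13.3% lower). All 36 were among the 39 with a mean level of at least 6. Only 1 of the 52 had the opposite sign, a dim probe set of Prim2 at a mean level of 3.93 (-0.02 ± 0.13, unadjusted p = 0.906). These probe sets share their RNA with the ones shown, so they are not further samples.

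A list of 40 other replication genes, of which 38 were measured, gave a similar division. Between EphB2 High and Low cells 33 rose and 1 fell, the other 4 did not pass, and the median was 1.52. Of all genes 22.0% were called higher there and 15.3% lower. Between Medium and Low cells 30 rose and 1 fell, beside 14.6% of all genes called higher and 10.1% lower. Between High and Medium cells limma called 0, with a median of 0.19 and 6 of 38 at an unadjusted p below 0.05, near the 14.2% of all genes. The largest rises were those of Timeless, the fork partner of Tipin (2.63 ± 0.37), Dscc1 of an alternative clamp loader (2.60 ± 0.21) and Cdc7, the kinase that fires origins (2.51 ± 0.34). Smallest among those that rose were the MCM-binding protein gene Mcmbp (0.51 ± 0.12), Mcm9 (0.55 ± 0.17) and Slbp, which binds histone mRNA (0.59 ± 0.15). The gene that fell was Pold4, the small subunit of polymerase delta. It was at 9.22 and 9.20 on the High arrays, 9.33 and 9.15 on the Medium arrays, 9.85 and 9.90 on the Low arrays, 9.41 on the Lgr5 High and 9.53 on the Lgr5 Low array. High and Medium arrays lay below the Low arrays, a difference of -0.66 ± 0.12 between High and Low (limma adjusted p = 0.00753). Rrm2b, the p53-inducible counterpart of Rrm2, differed by -0.25 ± 0.11 and did not pass (adjusted p = 0.13). Nor did Orc4 (0.24 ± 0.15), Top1 (0.21 ± 0.12) or Donson, which was level across the groups (adjusted p = 0.994). With the probe sets used, Orc3 and Orc4 of the origin recognition complex thus differed by less than 0.35. Orc1, Orc2, Orc5 and Orc6 all rose. The further probe sets of Orc3 gave 0.45 and 0.14, and those of Orc4 are not given here. All 24 measured mitosis genes rose between High and Low cells, with a median of 2.12, and between Lgr5 High and Lgr5 Low cells their median was 0.34.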

How the data were processed

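RNA of sorted mouse intestinal crypt cells was amplified isothermally and hybridized to Affymetrix arrays, per the labels' protocols. The deposited values are log2 probe set levels that the authors made with RMA, per the submitters' processing notes. Its version, and whether all 8 arrays were normalized together, are not given in the sources used here. Array medians lay between 6.12 and 6.20. Of 45101 probe sets, 64 were controls, 34945 named 1 gene, 932 several and 9160 none in the platform annotation. For each of 18193 genes the single-gene probe set with the highest mean was used. Levels of different genes were not compared.

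The 6 EphB2 arrays were fitted by group with limma 3.58.1 in R 4.3.3 (lmFit, eBayes, 3 residual degrees of freedom). P-values were 2-sided and adjusted over all genes (Benjamini-Hochberg), with calls at 0.05. On simulated data the High-to-Low comparison called 73% of 1 log2 changes and 100% of 2 log2 changes. The simulation changed few genes and gave all groups the same spread. Its rates therefore do not carry over to members that scattered most on the Low arrays, nor to High against Medium. The number of arrays limits the precision. EphB2 arrays with the same number share a hybridization date, and their deviations from group means correlated at 0.452 (High and Medium), 0.131 (High and Low) and 0.212 (Medium and Low) over all genes. The fit with that block was an alternative, as were quantile normalization, a filter on dim genes, the mean of probe sets, limma-trend and leaving out arrays. Lgr5 arrays were compared without a test.

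Values on every array are given for the members of largest and smallest High-to-Low difference in each group of proteins, for members not called, and for members whose Lgr5 difference ran the other way. Full promoter windows are given only for members of largest difference and for members not called, where a window was held. The short windows were chosen after seeing the matches. Members and lists were chosen with earlier results of these data known.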

Additional observations from a re-analysis of the deposited data

Results flagged for a closer look

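For 4 replication genes the single Lgr5 comparison ran against both EphB2 hybridizations, in which they were higher in EphB2 High than in EphB2 Low cells. On the Lgr5 High array Rrm2 differed from the Lgr5 Low array by -0.29 (log2), Orc3 by -0.10, Ung by -0.08 and Uhrf1 by -0.06. The difference between the sorts was not tested, since each Lgr5 group has 1 array. Both further probe sets of Rrm2 were also lower on the Lgr5 High array, by -0.34 and -0.12. The further probe sets of Orc3 (0.35 and 0.50) and of Uhrf1 (0.27) were higher there, and Ung has no further probe set.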

How the results depend on the processing

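The number of replication genes called between EphB2 High and Low cells was 43 of 44. It was 43 with the replicate block, which changed no member's call in this comparison, 42 with the mean of probe sets and 44 with limma-trend. With the mean of probe sets the differences of Pola1 (1.51), Pole2 (1.54), Pola2 (0.50), Gins1 (1.56), Cdc45 (1.33), Mcm6 (1.09), Chaf1b (1.24) and Tyms (0.70) were smaller by more than 1.5 times and that of Rrm2 (1.45) larger. The further probe sets in these means had mean levels of 2.92 (Pola1), 4.79 (Pole2), 5.66 and 4.68 (Pola2), 6.14 (Gins1) and 5.85 (Cdc45). They were at 11.51 and 3.13 for Mcm6, 3.13 for Chaf1b, 5.72, 4.43 and 3.91 for Tyms, and 9.13 and 8.5 for Rrm2. The cause of the shifts was not tested. Leaving out single arrays gave 37 to 43 calls, and a median difference of 1.42 to 2.21. Between Medium and Low cells 42 were called, 43 with the replicate block, and 4 to 42 when single arrays were left out. The lowest counts came without a Medium array. In each fit without an array, the lone sample left in that group was assumed to vary like the other groups. High against Medium, and the upper against the lower step, gave 0 calls under every alternative run, with medians of 0.18 to 0.27 and -1.69 to -0.98 when single arrays were left out. No Lgr5 difference reached 2-fold under any alternative run. The dim-gene filter left out Orc1. Leaving out probe sets whose names mark possible matches to other transcripts, an alternative chosen after seeing the data, gave 43 calls between High and Low. No member changed direction between High and Low under these alternatives. Signal over background was not given, so dim probe sets could not be judged against it.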
